A study of Danio rerio with 3 samples.

Results

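The genes of ciliary transport and of the BBSome were followed across the cell types of the adult zebrafish retina. They were taken by name from the gene lists deposited with the counts. The list holds every symbol that begins with ift or bbs followed by a digit, and it also holds other ciliary genes, among them bbip1, arl13a, tulp1a, tulp1b, cep290, rp1, rp1l1b and rpgrip1. This gave 31 of 30579 gene symbols, on 42 of 47048 feature rows, because 9 of the genes were split over more than 1 row with a suffix and these copies were summed. The rule uses names alone, but it was set with earlier results of these data known. The study reports cep290, rp1, rpgrip1, bbs5, tulp1b and arl13a as increased in P23H rods of this series. By role there were 14 genes of intraflagellar transport (7 of the IFT-B core, 4 of the IFT-B periphery and 3 of IFT-A), 7 BBSome subunits, 2 chaperonin-like genes that assist BBSome assembly (bbs10 and bbs12), 2 tubby-like genes, 2 genes of the connecting cilium, 2 of the axoneme and 2 of other roles, among them arl13a, which codes for a small GTPase.

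The outer segment of a photoreceptor is a greatly enlarged primary cilium. Opsins and the other proteins of the light response are made in the inner segment and reach it through a narrow connecting cilium. Trains of IFT-B and IFT-A are moved outward by kinesin and returned by dynein, while the BBSome is a coat that takes selected membrane proteins through the cilium. CEP290 and RPGRIP1 are proteins of the connecting cilium, RP1 and RP1L1 bind the microtubules of the axoneme, and TULP1 is needed for the transport of rhodopsin in mammalian photoreceptors. Loss of many of these proteins leads to photoreceptor degeneration in humans.

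Whole retinas of adult fish were dissociated and sequenced as 3′ single-cell libraries on the 10x platform. The P23H fish belonged to the transgenic line uth4Tg, a retinitis pigmentosa model in which the rho promoter drives a mouse rhodopsin with the P23H change in rods, beside the fish's own rho. The controls were wild type (WT) fish of the AB strain. There were 3 libraries, P23H with V3 chemistry, P23H with V2 chemistry and WT with V3 chemistry, and each came from a pool of 3 fish of 4 to 8 months that were kept on 14 h of light and 10 h of dark and collected 2 to 4 h after light onset. Each genotype and chemistry was thus 1 library, so there was no replicate check, no p-value was computed, and all intervals below cover counting error only. Differences between the P23H V2 and the WT V3 library hold the chemistry and the depth as well as the genotype, and these cannot be told apart.

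After the study's filters 15513 cells remained in P23H V3, 4667 in P23H V2 and 13554 in WT V3, with 31030077, 2590330 and 31989983 unique molecular identifiers (UMIs) and medians of 1245, 457 and 1220 UMIs per cell. The V3 libraries shared 64 cell barcodes, and P23H V2 shared 0 with P23H V3 and 1 with WT V3. Clusters were called rods, newly formed rods or cones from marker genes, so that each name stands for cells like that type. Rods were 508 cells in P23H V3 and 831 in WT V3, newly formed rods 558 and 150, and cones 1153 and 1720, and all other named types held 12705 and 9408 cells. P23H V2 was clustered alone and gave 463 rods, 462 newly formed rods and 440 cones. The study itself counted fewer rods and more newly formed rods in its P23H V2 run. In the larger V2 rod cluster, of 287 cells, rho was not among the markers counted. Whether some of the cells called rods in V2 are newly formed rods was not tested. Levels are given as counts per 1000000 UMIs (CPM). The rod opsin rho reached 133100 CPM in P23H V3 rods, 19484 CPM in P23H V2 rods and 249810 CPM in WT V3 rods. Newly formed rods showed 5 of 9 listed markers (fabp7a, cxxc5a, neurod1, crx and otx5), and the study's own marker arl13a was left out of that list because it is described here. One further cluster with rod markers, of 49 cells in P23H V3 and 1184 in WT V3, stayed unnamed because its profile resembled that of all other cells. Cells of every type held some rho, at 1370 CPM in other types of P23H V3 and at 9060 CPM in WT V3, which is dealt with beside the results it touches.

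A CPM value is the share of a gene in all UMIs of the cells of a type within 1 library, and its interval is the exact 95% Poisson interval. A gene was called higher or lower in P23H where the intervals of both libraries were apart and the ratio was at least 1.5, and it was considered in a cell type only with at least 20 UMIs there in both libraries together. A log2 ratio is that of the P23H level to the WT level. Because each cell was read at the 3′ end, levels are compared between libraries and cell types and not between genes.

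The members differed widely in how well they were counted. Over all cells of WT V3, rp1l1b had 15672 UMIs, arl13a 4027 and tulp1b 3509, whereas bbs10 had 0, bbs2 1 and bbs4 2. The P23H V3 library gave 24962, 6556 and 2871 UMIs for rp1l1b, arl13a and tulp1b, and 0, 0 and 1 for bbs10, bbs2 and bbs4. Low counts went with split genes: of the 9 members on more than 1 row, 7 had fewer than 100 UMIs in P23H V3 and 8 in WT V3, against 2 and 1 of the 22 members on a single row. The same comparison over all symbols gave 69.6% under 100 UMIs for split symbols and 59.7% for single ones in P23H V3, and 69.1% and 60.2% in WT V3. Cell Ranger leaves out reads that map to more than 1 gene, and its part in these low counts was not tested. The BBSome subunits bbs2 and bbs4 and the chaperonin-like bbs10 could therefore not be measured in any cell type. Of the remaining members that the rule for naming genes left unnamed, ift22 had 783 UMIs in P23H V3 and 552 in WT V3, ift81 had 164 and 110, and bbs1, ift122, ift140, ift43 and ift88 had between 4 and 58 in P23H V3 and between 9 and 76 in WT V3.

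In each library most members considered were higher in rods than in other types, that is, all named types but rods, newly formed rods and cones. The make-up of other types differed between the V3 libraries. Retinal pigmented epithelium gave 236895 of their 22690575 UMIs in P23H V3 and 6439226 of 21917866 in WT V3. What part this has in comparisons with other types was not tested. In P23H V3, 16 of the 25 members considered were at least 2-fold higher in rods than in other types, with intervals apart, against 7.47% of all 15706 genes. In WT V3 this held for 18 of 26 members, against 5.1% of 15559 genes, and in P23H V2 for 14 of 19, against 8.22%. No member was lower in rods in P23H V3, P23H V2 or WT V3, against 21.7%, 18.5% and 29.6% of all genes. Clusters were made from the same cells, so that these counts are descriptions.

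The connecting cilium gene rpgrip1 showed the steepest contrast of the WT members, at 206 CPM in WT V3 rods against 15.0 CPM in other types. In P23H V3 the steepest was tulp1b, at 777 CPM in rods against 24.9 CPM in other types. Levels in other types include any carried-over rod and cone RNA, and rho there had 1370 CPM in P23H V3 and 9060 CPM in WT V3. Intraflagellar transport genes were divided. ift172, ift27, ift52 and ift80 were higher in rods in both V3 libraries, ift57 and ift74 only in WT V3, and ift20, ift22, ift46 and ift81 in neither; whether the V3 libraries differ in this was not tested. ift20, a peripheral IFT-B subunit that also acts at the Golgi, reached 68.9 CPM in rods and 44.0 CPM in other types of P23H V3, and 39.1 and 32.2 CPM in WT V3. Other types held 79.9% of its UMIs in P23H V3 and 75.8% in WT V3.

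Newly formed rods and cones had patterns of their own. In newly formed rods 20 of 26 members were higher than in other types in P23H V3 (9.2% of all genes) and 16 of 24 in WT V3 (6.21%), and 10 of 17 in P23H V2 (6.07%). In cones the counts were 10 of 27 in P23H V3 (6.36% of all genes) and 16 of 27 in WT V3 (6.73%), and 6 of 18 in P23H V2 (6.91%). Lower in cones were 52.5% of all genes in P23H V3 and 52% in WT V3, but few members. ift20 was lower in cones than in other types in both, at 12.9 against 44.0 CPM in P23H V3 and at 15.0 against 32.2 CPM in WT V3. The chaperonin-like gene bbs12 was also lower in P23H V3 cones, with 1 UMI.

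Of the 22 members with at least 100 UMIs in P23H V3, 11 were highest in newly formed rods, 8 in rods, and 1 each in cones, horizontal cells and oligodendrocytes. In WT V3, 12 of 22 were highest in newly formed rods, 6 in rods, 3 in cones and 1 in Müller glia. Many of these orders were within counting error. arl13a was highest in newly formed rods, at 2281 CPM against 527 CPM in rods of P23H V3 and at 1348 against 440 CPM in WT V3, and the intervals were apart in both libraries. It was among the genes that set the cluster apart, so its rank is no finding. The core IFT-B gene ift46 was also highest there, at 70.4 CPM in P23H V3 and 69.2 CPM in WT V3, as was the peripheral ift80, at 50.1 and 44.7 CPM, with intervals apart from the next type in both. For ift80 in WT V3, however, the interval of rods, up to 28.7 CPM, met that of newly formed rods. rpgrip1 reached 215 CPM in newly formed rods of P23H V3 and 228 CPM in those of WT V3, and these levels could not be told from the rod levels of 229 and 206 CPM.

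The axoneme genes followed another order. rp1l1b was highest in cones, at 4609 CPM in P23H V3 and 1838 CPM in WT V3, ahead of rods at 822 and 548 CPM. Cones held 81.8% of all its UMIs in P23H V3 and 79.6% in WT V3. Newly formed rods held little of either axoneme gene, with 77.0 CPM of rp1l1b in P23H V3 and 105 CPM in WT V3, below what rod and cone RNA carried into these cells could give (120 and 160 CPM). This ceiling counts all rho outside rods as carried-over rod RNA and all gnat2, the cone transducin gene, outside cones as carried-over cone RNA. RNA carried over from newly formed rods is not counted in it.

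**Figure D1:**
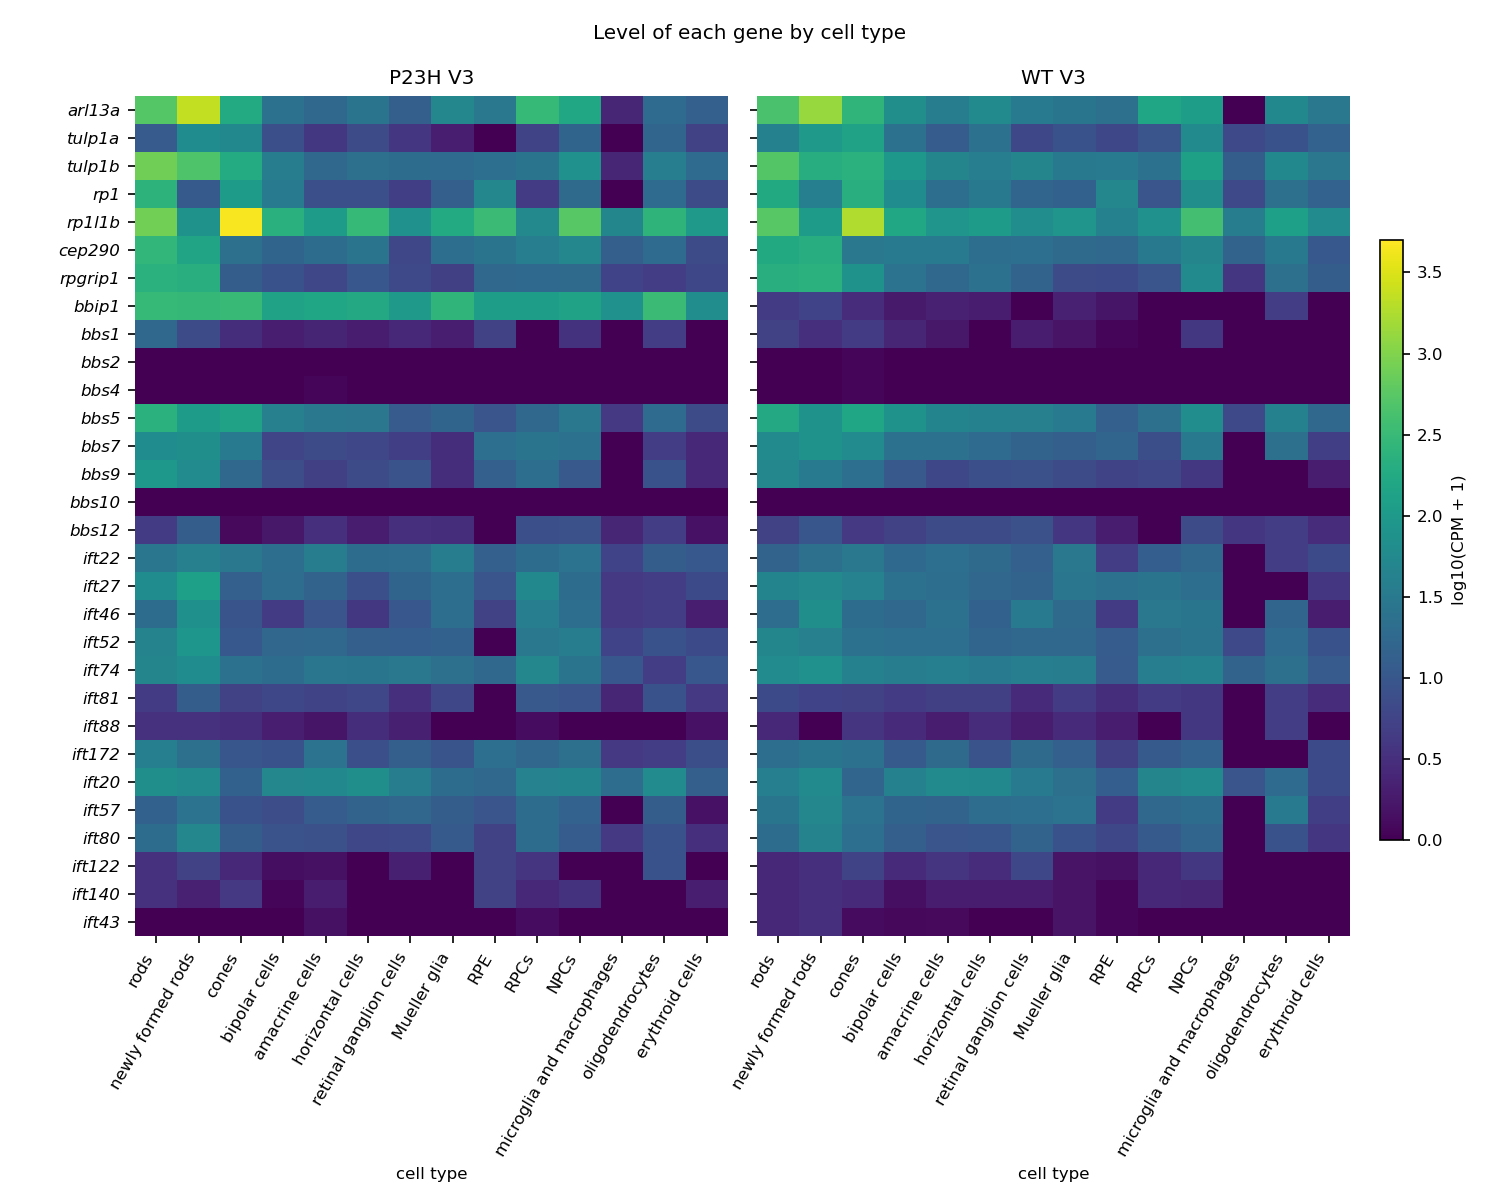
Level of 30 genes (rows) by cell type (columns) in P23H V3, left, and WT V3, right, with the colour giving log10 of CPM plus 1. Photoreceptor columns carry the high values: rp1l1b peaks in cones (4609 CPM in P23H V3, 1838 CPM in WT V3), tulp1b in rods (777 and 511 CPM) and arl13a in newly formed rods (2281 and 1348 CPM), while bbip1 is near 0 across WT V3.

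bbip1, the smallest BBSome subunit, separated the libraries everywhere and is given apart from the comparisons by cell type. It had 5287 UMIs in P23H V3, 431 in P23H V2 and 37 in WT V3, a log2 ratio of 7.20 between the V3 libraries (95% interval 6.74 to 7.71). Both P23H libraries carried many and WT carried almost none. All UMIs of the P23H libraries fell on the third of its 3 feature rows (5287 and 431, with 0 on the other two), whereas WT V3 had 17, 10 and 10 on the 3 rows. It was higher in P23H V3 in all 14 named cell types, against 5.92% to 21.4% of all genes by type, and in retinal ganglion cells, retinal progenitors, neurogenic progenitors, microglia and erythroid cells WT V3 had 0 UMIs.

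In rods bbip1 reached 296 CPM in P23H V3, 323 CPM in P23H V2 and 3.33 CPM in WT V3. In cones it reached 306, 272 and 1.91 CPM. In newly formed rods the levels were 288 and 173 CPM in P23H V3 and V2, and the WT V3 level rested on 2 UMIs (log2 ratio 6.01, interval 4.15 to 9.06). A difference of this kind was uncommon but not unique. Of 14023 genes with at least 100 UMIs in the V3 libraries, 30 had a ratio at least as high and 17 one at least as low. Of 9218 genes considered in 5 or more cell types, 36 were higher in P23H V3 in every one and 34 lower in every one. On the row with the plain symbol alone P23H V3 had 0 UMIs, so that the direction of this gene depends on summing the copies.

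**Figure D2:**
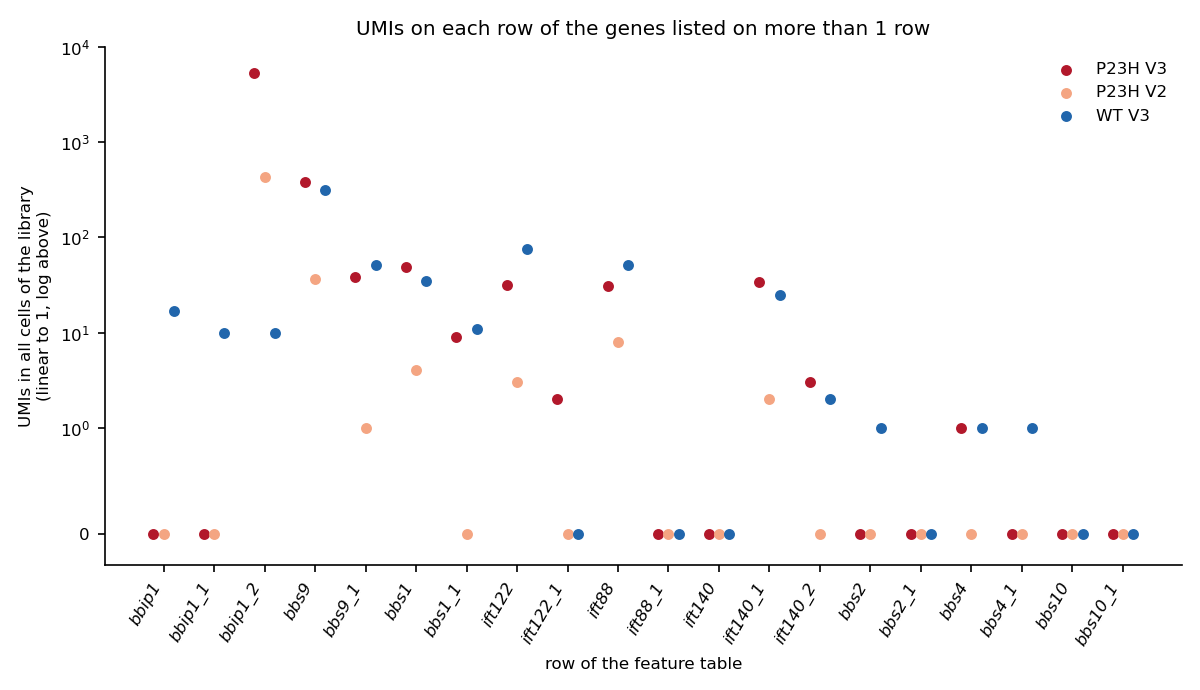
UMIs in all cells kept (linear to 1, log above) on each feature row of the 9 genes listed on more than 1 row, in P23H V3 (red), P23H V2 (orange) and WT V3 (blue). The third row of bbip1 holds 5287 UMIs in P23H V3 and 10 in WT V3, and bbs2, bbs4 and bbs10 are at or next to 0 on every row.

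In rods the study asked which genes differ between P23H and WT cells. Of 21 members considered, 5 were higher in P23H V3 and 2 lower, against 19.9% and 5.94% of all 6366 genes considered. Higher were bbip1, bbs9, ift20, tulp1b and cep290, and those lower included tulp1a. The median log2 ratio was 0.43 over the members and 0.31 over all genes, so a shift of that size is common to rod genes in this pair of libraries. After TMM scaling, with the 20 most counted genes left out of the totals, or with the all-gene median subtracted, bbip1 alone stayed higher.

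Among the BBSome subunits, bbs9 had 91.4 CPM in P23H V3 rods (interval 72.2 to 114), 69.3 CPM in P23H V2 rods and 49.9 CPM in WT V3 rods (38.1 to 64.2). Its log2 ratio of 0.87 between the V3 libraries was 0.57 above the all-gene median. bbs5 had 232 CPM in P23H V3 rods, 169 CPM in P23H V2 rods and 170 CPM in WT V3 rods. Its V3 intervals were apart but the ratio stayed under 1.5. bbs7 had 62.9, 53.9 and 57.4 CPM in the same order, which could not be told apart.

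Of the 9 IFT genes considered in rods, 1 was called between the V3 libraries. ift20 had 68.9 CPM in P23H V3 rods (52.3 to 89.0), 73.2 CPM in P23H V2 rods and 39.1 CPM in WT V3 rods (28.7 to 52.0). Others were as far apart on fewer UMIs and with intervals that met, such as ift57 at 13.1 CPM in P23H V3 rods (6.52 to 23.4) and 26.6 CPM in WT V3 rods (18.2 to 37.6), and ift172 at 38.0 CPM (26.0 to 53.6) and 20.8 CPM (13.5 to 30.7). The 7 core IFT-B genes summed to 205 CPM in P23H V3 rods (176 to 238) and 197 CPM in WT V3 rods (173 to 224). The 3 IFT-A genes had 4.75 CPM together in P23H V3 rods and 4.99 CPM in WT V3 rods, too few to compare.

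The connecting cilium genes were both well counted. cep290, a scaffold of its Y-links, had 281 CPM in P23H V3 rods (247 to 320) and 175 CPM in WT V3 rods (153 to 201), but 50.1 CPM in P23H V2 rods (26.7 to 85.6). The P23H libraries thus lay on either side of WT, but their rods also differed in rho, and differences in cells and chemistry cannot be told apart. rpgrip1, which anchors the RPGR complex there, had 229 CPM in P23H V3 rods, 162 CPM in P23H V2 rods and 206 CPM in WT V3 rods. Its V3 levels overlapped.

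The tubby-like pair moved apart in P23H V3. tulp1b had 777 CPM in P23H V3 rods (718 to 839), 2095 CPM in P23H V2 rods and 511 CPM in WT V3 rods (471 to 553). It was a leading gene of the larger V2 rod cluster, so its V2 level is no independent support. tulp1a had 10.7 CPM in P23H V3 rods (9 UMIs, 4.89 to 20.3) and 41.6 CPM in WT V3 rods (50 UMIs, 30.9 to 54.8), a log2 ratio of −1.96. In P23H V2 rods tulp1a reached 146 CPM (104 to 201), above WT.

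The GTPase gene arl13a had 527 CPM in P23H V3 rods, 1713 CPM in P23H V2 rods and 440 CPM in WT V3 rods. The V3 levels were apart by less than 1.5-fold. The axoneme genes behaved alike in V3, with rp1l1b at 822 CPM in P23H V3 rods and 548 CPM in WT V3 rods, and rp1 at 247 and 177 CPM, again under 1.5-fold. After the ceiling for carried-over cone RNA was subtracted, rp1l1b had 653 and 373 CPM and rp1 had 243 and 157 CPM. Both genes then passed 1.5-fold. In P23H V2 rods rp1l1b had 104 CPM and rp1 34.7 CPM, far below rods of both V3 libraries. The V2 levels of arl13a, rp1l1b and rp1 were nearer those of newly formed rods in both V3 libraries, and that of tulp1b was not. Whether the cells called rods are alike in V2 and V3 was not tested.

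**Figure D3:**
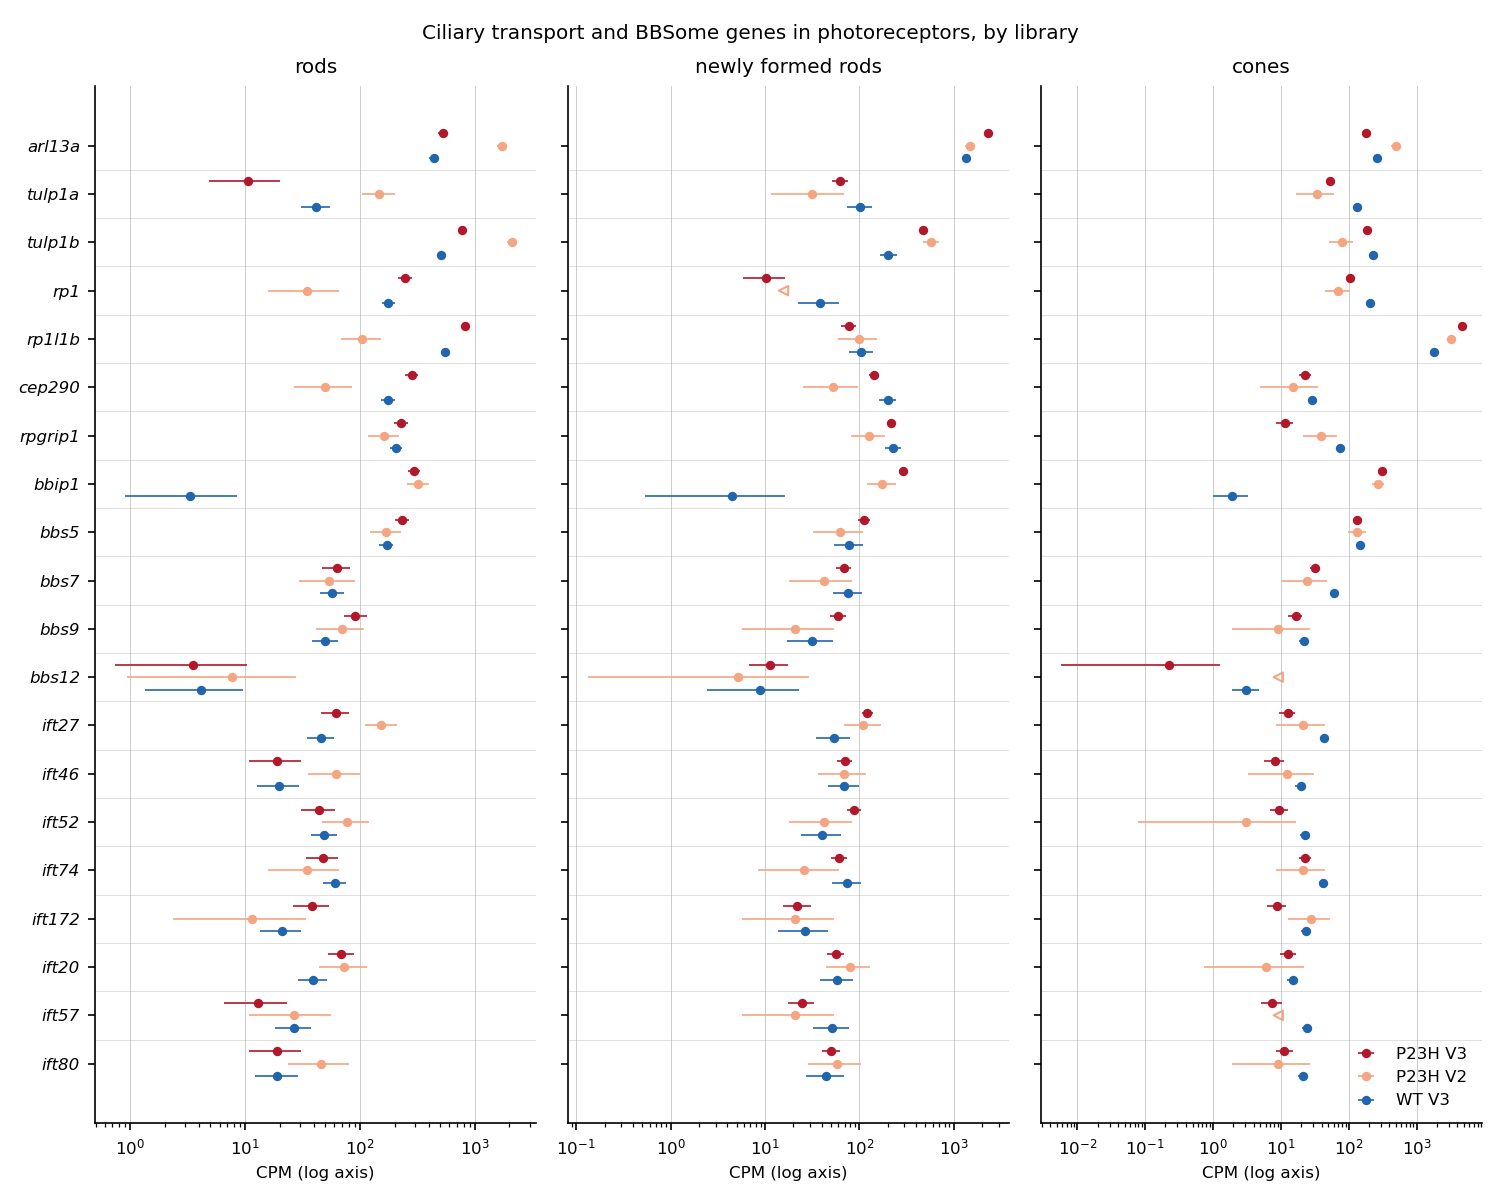
Level of each named member (CPM, log axis) in rods, newly formed rods and cones of P23H V3 (red), P23H V2 (orange) and WT V3 (blue), with exact 95% Poisson intervals, where open triangles stand for 0 UMIs and are drawn at the level of 3 UMIs. In rods cep290 lies higher in P23H V3 (281 CPM) than in WT V3 (175 CPM), and in cones rpgrip1 lies at 11.5 CPM in P23H V3 against 75.2 CPM in WT V3.

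Rods came from 2 clusters, and the smaller one weighed more in WT. The larger cluster held 444 cells of P23H V3 and 530 of WT V3. Within it 3 of 21 members were higher in P23H V3 (bbip1, bbs9 and tulp1b) and 1 was lower, against 20.3% and 6.21% of all genes. There tulp1a had 11.5 CPM in P23H V3 (5.26 to 21.8) and 30.4 CPM in WT V3 (20.5 to 43.3), with intervals that met. The smaller cluster held 64 and 301 cells, and no member of the 9 considered was called, against 18.5% higher and 5.48% lower of all genes. Counting the unnamed cluster of 49 and 1184 cells among the rods gave 9 members higher and 1 lower. The share of all genes called was not computed for that choice. The counts in rods therefore depend on which WT cells are taken as rods.

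In newly formed rods 6 of 23 members were higher in P23H V3 and 1 was lower, against 10.3% and 8.35% of all 6744 genes considered. Those higher included the GTPase gene arl13a, the core IFT-B genes ift27 and ift52, tulp1b and bbip1, and lower was rp1. The median log2 ratio of the members, 0.17, was like that of all genes, 0.18. The WT level of every gene here rests on 150 cells. The cells also differed in rho, at 3387 CPM in newly formed rods of P23H V3 and 18289 CPM in those of WT V3. What part this difference has in the calls was not tested.

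arl13a had 2281 CPM in newly formed rods of P23H V3 (2209 to 2354) and 1348 CPM in those of WT V3 (1243 to 1460). In P23H V2 it had 1478 CPM and was not called against WT V3.

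ift27, the small GTPase of the IFT-B core that links it to the BBSome, had 122 CPM in P23H V3 (106 to 140) and 53.6 CPM in WT V3 (34.3 to 79.7). ift52, which holds the IFT-B core together, had 88.3 CPM in P23H V3 (74.7 to 104) and 40.2 CPM in WT V3 (23.8 to 63.5). In P23H V2 they had 110 CPM and 41.9 CPM. The other 8 IFT genes considered were not called; ift46, for one, had 70.4 CPM in P23H V3 and 69.2 CPM in WT V3, a log2 ratio of 0.03 with an interval of −0.56 to 0.65.

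tulp1b had 475 CPM in P23H V3 (443 to 509), 571 CPM in P23H V2 (469 to 689) and 203 CPM in WT V3 (164 to 249). It was higher in newly formed rods of both P23H libraries, as was bbip1. When the V3 libraries were merged without integration, bbip1 and ift52 were still called higher in P23H V3, and tulp1b, arl13a and ift27 were not. rp1 had 10.1 CPM in P23H V3 (17 UMIs), 0 UMIs in P23H V2 (15.7 CPM at the floor of 3 UMIs) and 38.0 CPM in WT V3 (17 UMIs). The ceiling for carried-over RNA came to 84.3% of the rp1 level in P23H V3 and 70.2% in WT V3, and its part in the call was not tested.

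In cones most of the calls were of lower levels in P23H. Of 27 members considered, 2 were higher in P23H V3 and 13 lower, against 14.2% and 17.5% of all 10025 genes. The median log2 ratio was −0.88 over the members and −0.07 over all genes. The 13 lower genes included ift27, ift46, ift52, ift57, ift74, ift80, ift172, bbs7, bbs12, tulp1a, rp1 and rpgrip1. Those higher were rp1l1b and bbip1. Of the 3 IFT-A genes 2 were considered and not called. ift122 had 1.58 CPM in P23H V3 (7 UMIs, 0.636 to 3.26) and 4.71 CPM in WT V3 (32 UMIs, 3.22 to 6.65), and it was called lower with at least 500 genes per cell, at resolution 1.2 and with TMM scaling.

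The core IFT-B genes summed to 88.5 CPM in P23H V3 cones (80.0 to 97.7) and 163 CPM in WT V3 cones (154 to 173), and 4 of 7 were lower. ift27 had 12.6 CPM in P23H V3 (9.55 to 16.4) and 43.3 CPM in WT V3 (38.5 to 48.5), a log2 ratio of −1.78. ift46 had 8.13 and 19.6 CPM, ift52 had 9.48 and 22.7 CPM, and ift74, which with ift81 binds tubulin, had 22.8 and 42.0 CPM in the same order. All 4 had intervals apart, while ift22 was at 29.1 CPM in P23H V3 and 29.0 CPM in WT V3.

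The peripheral IFT-B genes summed to 40.4 CPM in P23H V3 cones (34.7 to 46.8) and 84.1 CPM in WT V3 cones (77.3 to 91.3), and 3 of 4 were lower. ift57 had 7.45 CPM in P23H V3 (5.13 to 10.5) and 24.3 CPM in WT V3 (20.7 to 28.3). ift172, which turns the train at the ciliary tip, had 8.81 CPM in P23H V3 and 23.4 CPM in WT V3. ift80 had 11.3 CPM in P23H V3 and 21.3 CPM in WT V3. The exception was ift20, with 12.9 CPM in P23H V3 and 15.0 CPM in WT V3, a log2 ratio of −0.22 (−0.72 to 0.26).

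Of the BBSome subunits, bbs7 had 31.6 CPM in P23H V3 cones (26.6 to 37.3) and 60.2 CPM in WT V3 cones (54.5 to 66.3). bbs5 did not follow, with 135 CPM in P23H V3 and 148 CPM in WT V3 (log2 ratio −0.14, −0.29 to 0.01). The chaperonin-like bbs12 had 1 UMI in P23H V3 and 21 UMIs in WT V3, a log2 ratio of −3.78 with a wide interval of −9.15 to −1.14.

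The widest gap among the lower genes with more than 1 UMI was that of rpgrip1. It had 11.5 CPM in P23H V3 cones (51 UMIs), 39.8 CPM in P23H V2 cones (21.2 to 68.0) and 75.2 CPM in WT V3 cones (511 UMIs, 68.9 to 82.1). Its log2 ratio in V3 was −2.71 (−3.15 to −2.29). The other connecting cilium gene, cep290, had 22.6 CPM in P23H V3 and 28.9 CPM in WT V3, which overlapped.

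The axoneme genes went opposite ways in cones. rp1l1b had 4609 CPM in P23H V3 (4546 to 4673), 3184 CPM in P23H V2 (2994 to 3383) and 1838 CPM in WT V3 (1806 to 1870), higher in both P23H libraries. rp1 had 106 CPM in P23H V3 (96.5 to 116), 70.3 CPM in P23H V2 (44.6 to 106) and 209 CPM in WT V3 (198 to 220), lower in both. rp1l1b was one of the genes that set the largest cone cluster apart.

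tulp1a had 53.1 CPM in P23H V3 cones, 33.6 CPM in P23H V2 cones and 133 CPM in WT V3 cones, while tulp1b had 186, 79.5 and 232 CPM in the same order. tulp1b passed the 1.5-fold limit in P23H V2 alone. arl13a had 183 CPM in P23H V3 and 263 CPM in WT V3, under 1.5-fold, but 495 CPM in P23H V2. The P23H libraries gave the same call for tulp1a and lay on opposite sides of WT for arl13a.

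**Figure D4:**
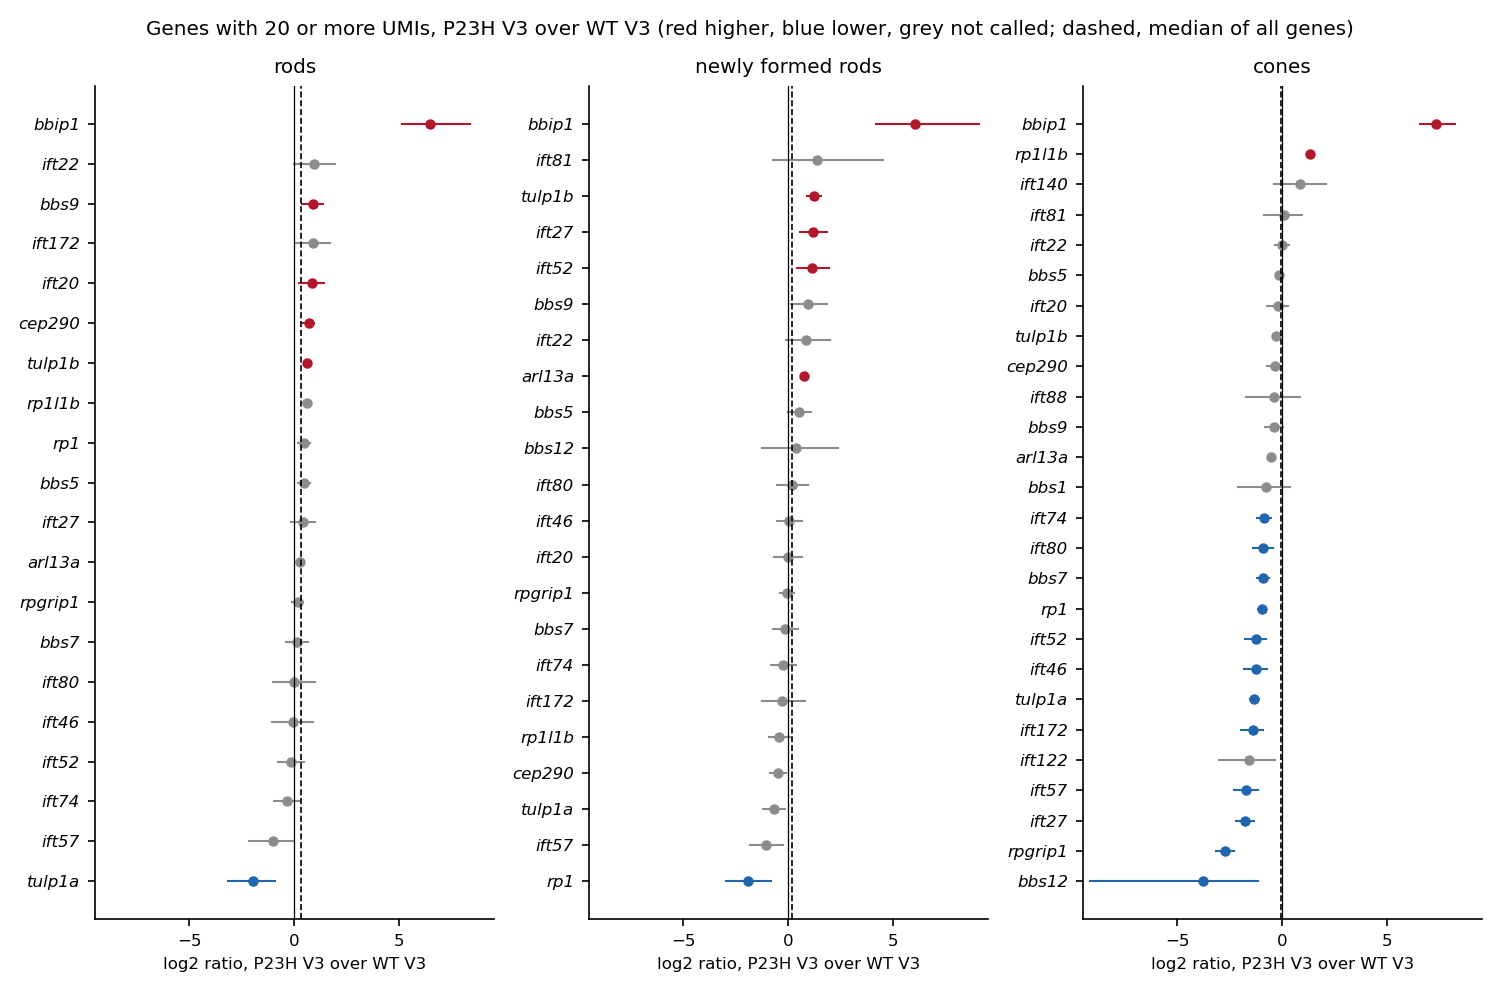
Log2 ratio of P23H V3 to WT V3 for the members described in rods, newly formed rods and cones, with exact 95% intervals, red where higher, blue where lower and grey where not called, and the median of all genes considered as a dashed line. In cones 12 called members lie to the left, from bbs12 at −3.78 to ift74 at −0.88, and rp1l1b (1.33) and bbip1 (7.32) lie to the right.

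Cone clusters were also compared one by one. Within cluster 2 (668 cells of P23H V3 and 814 of WT V3) 2 of 25 members were higher and 12 lower, against 11.9% and 19.5% of all genes, and within cluster 3 (439 and 872 cells) 2 of 21 were higher and 5 lower, against 16.6% and 9.23%. Those lower in cluster 3 included ift27, rpgrip1, tulp1a and arl13a, whereas ift46, ift52, ift57, ift74, ift80, ift172, bbs7 and rp1, lower in cones as a whole, were not called there. Their log2 ratios in cluster 3 were also negative, from −1.39 for ift172 to −0.51 for ift52. Except for rp1, with 61 UMIs, they rested on 5 to 17 UMIs in P23H V3. Cluster 27, of 46 and 34 cells, had 2 of 7 higher and 1 lower, against 7.78% and 7% of all genes. rp1l1b reached 5035 CPM in P23H V3 and 2232 CPM in WT V3 in cluster 2, 3013 and 959 CPM in cluster 3, and 3186 and 1269 CPM in cluster 27. rpgrip1 had 9.78 and 75.9 CPM, 22.6 and 74.1 CPM, and 4.05 and 71.0 CPM in the same order. Both genes had the same direction in all 3 clusters, but rpgrip1 in cluster 27 rested on 1 UMI in P23H V3 and 15 in WT V3, under the minimum of 20.

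**Figure D5:**
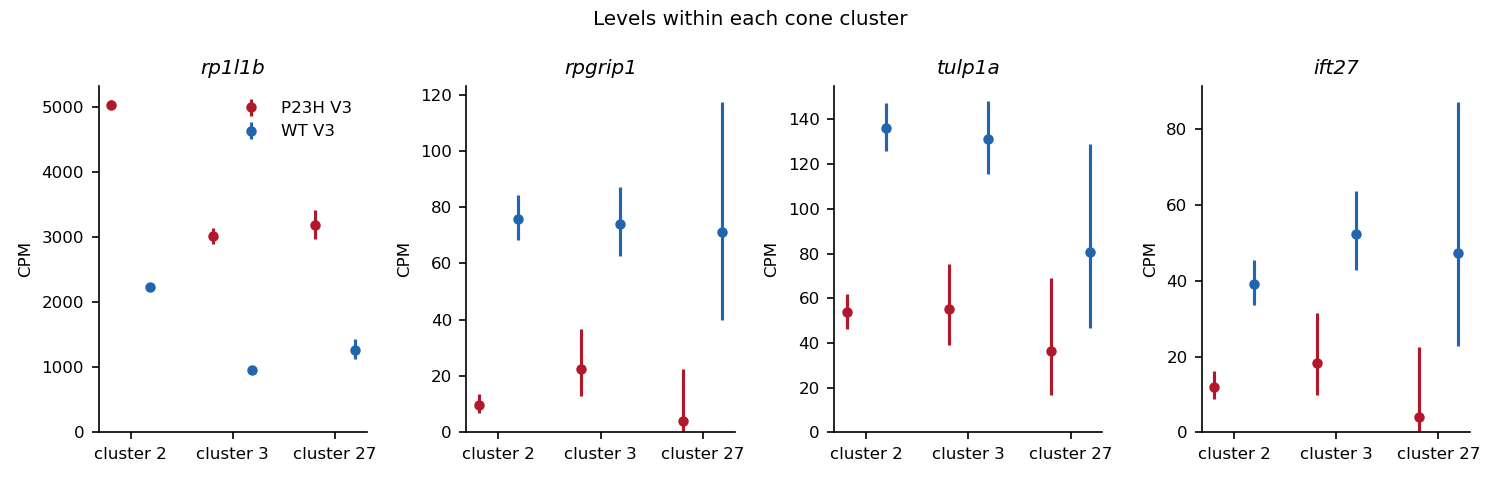
Levels (CPM) of 4 genes called in cones, picked after their values were seen, in cone clusters 2, 3 and 27 of P23H V3 and WT V3, with exact 95% Poisson intervals. In cluster 2 rp1l1b stands at 5035 CPM in P23H V3 against 2232 CPM in WT V3, and rpgrip1 at 9.78 against 75.9 CPM.

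The level of rho outside rods was lower in P23H V3 than in WT V3. In cones rho had 837 CPM in P23H V3, 1361 CPM in P23H V2 and 4686 CPM in WT V3. At these levels the ceiling for rod RNA came to 1.44 CPM of the 11.5 CPM of rpgrip1 in P23H V3 cones and to 3.87 CPM of the 75.2 CPM in WT V3 cones. In P23H V2, where rods themselves held less rho, it came to 11.3 CPM of 39.8 CPM. After the ceiling was subtracted, all 15 genes called in cones kept their direction and a ratio of at least 1.5, as did all 7 in rods and all 7 in newly formed rods. In rods rp1 and rp1l1b then also reached that ratio. Other types differed in make-up between the V3 libraries, as given above, and the part of this in the calls there was not tested. In other types as a whole, 4 members were higher and 6 lower of 27, against 20% and 19.1% of all genes, and 6 of these 10 kept their ratio after the subtraction. rpgrip1 had 8.07 CPM in other types of P23H V3 and 15.0 CPM in those of WT V3, and 5.26 and 2.53 CPM after it, the other way round. Newly formed rods, whose RNA the ceiling leaves out, held 45.4% of rpgrip1 UMIs in P23H V3 and 8.13% in WT V3. rp1l1b, at 156 and 94.2 CPM in other types, lay below its ceilings of 186 and 141 CPM, and tulp1a and bbs5 also lost the ratio.

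Bipolar and amacrine cells, the most numerous of the other types, repeated part of the cone pattern in V3. In bipolar cells (5711 in P23H V3, 4102 in WT V3) 1 of 23 members was higher, bbip1, and 13 were lower, against 11.1% and 17.8% of all genes, with a median log2 ratio of −0.92 over the members and −0.12 over all genes. In amacrine cells (3210 and 1996) 2 of 23 were higher, bbip1 and ift22, and 11 lower, against 11.3% and 14.5% of all genes, with medians of −0.52 and −0.05. rho had 1851 CPM in P23H V3 and 13583 CPM in WT V3 bipolar cells, and 1589 and 9359 CPM in amacrine cells, and gnat2 also differed, at 607 and 1515 CPM and at 296 and 856 CPM. After the ceiling was subtracted, 11 of the 14 calls in bipolar cells and 8 of the 13 in amacrine cells kept their direction and a ratio of at least 1.5. rpgrip1 lost it in bipolar cells, where 7.53 CPM in P23H V3 and 24.6 CPM in WT V3 left levels that were less than 1.5-fold apart.

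bbs7 and ift46 kept it in both types. bbs7 had 4.84 CPM in P23H V3 bipolar cells (3.19 to 7.04) and 23.9 CPM in WT V3 bipolar cells (19.7 to 28.9), which left 2.20 and 14.2 CPM. In amacrine cells it had 5.98 CPM in P23H V3 and 23.2 CPM in WT V3. ift46 had 3.59 CPM in P23H V3 bipolar cells and 16.5 CPM in WT V3 bipolar cells, and 8.44 and 23.9 CPM in amacrine cells. P23H V2 gave fewer calls in these types, with 1 higher (bbip1) and 1 lower (rp1) of 22 members in bipolar cells, against 11.9% and 6.31% of all genes. In its amacrine cells 3 of 22 were higher (arl13a, bbip1 and rp1l1b) and 5 lower (bbs5, cep290, ift46, ift74 and rp1), against 15.5% and 14.7%. Each of those 5 rested on 6 UMIs or fewer in P23H V2.

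Retinal progenitors (RPCs), which are the proliferating precursors of the retina, had other calls. Of 21 members 5 were higher in P23H V3 (arl13a, bbip1, bbs7, bbs9 and ift27) and 0 lower, against 8.28% and 8.6% of all genes, with medians of 0.47 over the members and 0.08 over all genes. The member median is the ratio of bbs12, which had 21 UMIs in P23H V3 and 0 UMIs, set to the floor, in WT V3. arl13a had 301 CPM in P23H V3 RPCs (282 to 322), 304 CPM in P23H V2 RPCs and 153 CPM in WT V3 RPCs (123 to 188). bbs7 rested on 75 UMIs in P23H V3 and 4 in WT V3, where only 77 cells were RPCs against 395 in P23H V3. In P23H V2 arl13a, bbip1, ift27 and tulp1b were higher and 0 were lower of 12, against 22.4% and 10.2% of all genes. With each cell assigned by its markers, arl13a and bbip1 were higher in P23H V3 RPCs, bbs5, rp1 and rp1l1b were lower, and bbs7, bbs9 and ift27 were not called. In the clusters bbs7 was lower in cones, bipolar cells and amacrine cells of P23H V3 and higher in its RPCs, a difference between types that was not tested.

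Shares of cells with a UMI gave the same order at a fixed depth. With each cell thinned to 500 UMIs, for which no V3 cell in these types was too shallow, rp1l1b was present in 79.4% of P23H V3 cones and 47.4% of WT V3 cones (94.7% and 82.0% before thinning). In erythroid cells, which should lack it, it was present in 8.47% and 6.83%. rpgrip1 was present in 0.781% of P23H V3 cones and 4.65% of WT V3 cones (4.25% and 23.4% before thinning), beside 0.212% and 1.64% of erythroid cells. arl13a was present in 66.8% of newly formed rods of P23H V3 and 40.7% of those of WT V3 (95.5% and 73.3% before thinning), beside 1.48% and 3.01% of erythroid cells. Median depths before thinning were 3613 and 3499 UMIs in cones, 2965.5 and 2601 in newly formed rods, and 916.5 and 1181 in erythroid cells.

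The P23H V2 library gave its own set of calls against the same WT cells. In rods 6 of 21 members were higher and 4 lower, against 31.1% and 9.86% of all genes. Higher were arl13a, bbip1, ift27, ift46, tulp1a and tulp1b, and those lower included cep290, rp1 and rp1l1b. ift27 had 154 CPM in P23H V2 rods and 45.7 CPM in WT V3 rods, and ift46 had 61.6 and 20.0 CPM. Both V2 rod clusters had much tulp1b (2238 CPM in the cluster of 287 cells and 1900 CPM in that of 176) and arl13a (1864 and 1509 CPM). rho had 5598 and 38378 CPM in these clusters, below its level in V3 rods, and differences in cells, chemistry and depth cannot be told apart here. The level in the cluster of 287 cells was also below the 18289 CPM of newly formed rods in WT V3. In both clusters arl13a lay between its levels in newly formed rods of WT V3 and of P23H V3.

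In newly formed rods of P23H V2, 2 of 17 members were higher (bbip1 and tulp1b) and 2 lower (cep290 and tulp1a), against 21.4% and 11.8% of all genes. cep290 had 52.4 CPM in P23H V2 and 201 CPM in WT V3. tulp1a had 31.4 CPM in P23H V2 and 100 CPM in WT V3, on 6 and 45 UMIs. In cones 3 of 26 were higher (arl13a, bbip1 and rp1l1b) and 8 lower, against 14.8% and 8.2% of all genes. Those lower included bbs7, ift52, ift57, rp1, rpgrip1, tulp1a and tulp1b. The median log2 ratio in V2 cones was −0.95 over the members and 0.23 over all genes. ift57 had 0 UMIs in P23H V2 cones, against a level of 9.18 CPM at the floor of 3 UMIs, and ift52 rested on 1 UMI there.

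Other ciliary genes were listed for comparison, namely IFT and BBSome genes under other names, motors, transition zone genes, axoneme kinases and outer segment disc proteins. Of 83 listed, 70 were found. In rods 6 of 39 considered were higher in P23H V3 and 3 lower, in newly formed rods 6 and 3 of 47, and in cones 3 and 12 of 55, with median log2 ratios of 0.27, 0.41 and −0.19. The shares of all genes called in these types are those given above, and the medians over all genes were 0.31, 0.18 and −0.07. The disc proteins of rods were divided. prph2b, a peripherin of the disc rim, had 708 CPM in P23H V3 rods and 225 CPM in WT V3 rods, and its paralog prph2a had 53.4 and 151 CPM. rom1b, a partner of peripherin, had 5735 CPM in P23H V3 and 10243 CPM in WT V3, while rom1a, at 2706 and 1813 CPM, was not called. rom1a and rom1b were among the markers that named the rods, so their levels are descriptions. In P23H V2 rods prph2b had 620 CPM, prph2a 30.8 CPM, rom1b 1213 CPM and rom1a 658 CPM. The P23H libraries thus lay on either side of WT for rom1a.

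prom1a, a prominin of forming discs, had 513 CPM in P23H V3 rods and 212 CPM in WT V3 rods, and prom1b, at 913 and 629 CPM, was not called. The disc cadherin cdhr1a had 281 and 165 CPM. The prenyl-binding chaperone pde6d had 39.2 CPM in P23H V3 rods and 338 CPM in WT V3 rods, on 3 feature rows. This was the largest drop of these genes between the V3 libraries. Its partner in lipid-protein transport unc119b, at 707 and 524 CPM, was not called, and unc119a rested on 19 and 4 UMIs. Of the motors, the kinesin-II gene kif3b had 35.6 CPM in P23H V3 rods and 15.0 CPM in WT V3 rods, and the dynein-2 chain gene wdr60 had 64.1 and 33.3 CPM, both higher and both based on 54 UMIs or fewer. In P23H V2 rods pde6d had 227 CPM, prom1a 227 CPM, prom1b 1363 CPM, cdhr1a 154 CPM and unc119b 539 CPM. There kif3b had 42.4 CPM and wdr60 92.4 CPM, and unc119a rested on 2 UMIs. Levels of prom1a and cdhr1a in P23H V2 were thus near those of WT V3.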

How the data were processed

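Single-cell 3′ counts were measured in 3 libraries. The deposited values are counts: whole-number UMIs per feature row and cell barcode, which the authors made with Cell Ranger (3.1.2.0 and build GRCz11, per the submitters' processing notes). Here rows of the same symbol with a suffix were summed. Cells with fewer than 200 genes, more than 4700 (P23H) or 6000 (WT) genes, or over 10% mitochondrial UMIs were left out. That percentage rests on 2 mitochondrial rows. The V3 libraries were integrated and clustered in Seurat 5.3.0 (2000 variable genes, 20 components, resolution 0.8), and P23H V2 was clustered alone. Of the genes described, rp1l1b and arl13a were among the variable genes. Clusters were named from marker genes. Doublets were not removed, because Scrublet called 0, 2 and 1 cells in P23H V3, P23H V2 and WT V3, fewer than a working caller should. The depth per library stands in the report and limits genes with few UMIs. UMIs were summed by type and library and compared as stated above, without a test, since each group is 1 library. A library at 0 was set to a floor of 3 UMIs for ratios. The script of the comparison was tested on simulated data.

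Values are given for genes called in rods, newly formed rods or cones and for those with at least 100 UMIs in rods of both V3 libraries together, 20 of the 31, with 10 others by ranges and counts. The results of 1 gene are not reported here, although it is part of the counts, sums and medians. Bipolar cells, amacrine cells and RPCs, and ift22 there, were described after their values were seen. Alternatives covered the cell filters, doublets, resolution, integration, cell assignment, scaling (TMM of edgeR 4.0.16), weighting, thresholds, gene copies and the P23H library. A further 4 were added after the data were seen: the unnamed cluster counted as rods, the largest cone cluster, the ceiling for carried-over RNA subtracted, and bbip1 left out. The genes and lists were chosen with earlier results of these data known. No sequences are given, since none was at hand for the build used.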

Additional observations from a re-analysis of the deposited data

Results flagged for a closer look

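For some genes the ratio to WT V3 ran in opposite directions in different cell types or in the 2 P23H libraries, each time past the 1.5-fold limit with intervals apart. None of these differences was tested, because each group is 1 library.

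The GTPase gene arl13a had a log2 ratio of P23H V3 over WT V3 of 0.76 in newly formed rods and 0.98 in RPCs, against −1.46 in bipolar cells and −1.10 in amacrine cells. After the ceiling for carried-over RNA was subtracted, 5.00 CPM in P23H V3 and 1.89 CPM in WT V3 were left in amacrine cells. This gave a ratio of 1.40, the other way round. The ceiling leaves out RNA from newly formed rods, which held 58.3% of arl13a UMIs in P23H V3 and 15.0% in WT V3. The core IFT-B gene ift27 had 1.18 in newly formed rods and 1.06 in RPCs, against −1.78 in cones, and ift52 had 1.14 in newly formed rods and −1.26 in cones. The BBSome subunit bbs7 had 1.89 in RPCs, on 4 UMIs in WT V3, against −0.93 in cones, −2.31 in bipolar cells and −1.95 in amacrine cells. It was not called in RPCs with each cell assigned by its markers. tulp1b had 0.61 in rods and 1.23 in newly formed rods, against −1.37 in bipolar cells and −1.53 in amacrine cells. The connecting cilium gene cep290 had 0.68 in rods, −1.16 in bipolar cells and −0.72 in amacrine cells of P23H V3 over WT V3, and −1.81 in rods of P23H V2 over WT V3. In P23H V3 rods tulp1b and cep290 were only 0.30 and 0.37 above the all-gene median. Neither was called there with at least 500 genes per cell, TMM scaling, the top genes left out or the median subtracted. The tubby-like gene tulp1a had 1.82 in P23H V2 rods and −1.96 in P23H V3 rods, on 38 and 9 UMIs. Rods of the P23H libraries differed in rho, so differences in cells and chemistry cannot be told apart for cep290 and tulp1a. In amacrine cells arl13a had 0.90 in P23H V2 and −1.10 in P23H V3, before that subtraction.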

How the results depend on the processing

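No paired analysis was possible because each group is 1 library. Over 18 planned and 4 added alternatives, single-gene log2 ratios gave 1220 values. Some settings cannot change a ratio, and among the 847 values that differed from the reported ones 833 kept their direction. In cones rp1l1b was called higher and ift52, ift57, rpgrip1 and tulp1a lower in all 22, some of which leave cones untouched. With P23H V2 the calls of ift52 and ift57 in cones rested on 1 UMI and on 0 UMIs at the floor.

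The calls in rods were the least steady. Shares of all genes called were computed for P23H V2 and for single clusters, not under the other alternatives. Members higher in rods numbered 1 with at least 500 genes per cell, with TMM scaling, with the 20 top genes left out, with the all-gene median subtracted or with a ratio of 2, 3 in the largest rod cluster, 8 with cells weighted equally and 9 with the unnamed cluster added. Members lower in rods numbered 0 with cells assigned by markers, 1 with at least 500 genes, in the largest rod cluster, with a ratio of 2 or with the unnamed cluster, and 4 with P23H V2. The median in rods was 0.24, 0.16, 0.11, 0.13, 0.60 and 0.54 with at least 500 genes, TMM, top genes left out, median subtracted, unnamed cluster added and ceiling subtracted.

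In newly formed rods 2 members were higher and 2 lower without integration and with P23H V2. Lower were 2 with the highest 8% of Scrublet scores left out or cells assigned by markers, 3 with top genes left out, 4 with the median subtracted and 0 with a minimum of 50 UMIs. In cones 1 was higher on plain-symbol rows or without bbip1, 8 were lower with P23H V2, and the median was −0.66 with no minimum of UMIs.

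In bipolar cells 2 members were higher with TMM or the median subtracted and 0 on plain-symbol rows or without bbip1, and 1 was lower with P23H V2. In amacrine cells 1 was higher with a ratio of 2, on plain-symbol rows or without bbip1, and 5 were lower with P23H V2 and 6 with the ceiling subtracted. In RPCs 3 were higher at resolution 0.4, without integration or with ciliary genes left out of the clustering, and 2 were higher and 3 lower with cells assigned by markers. There 1 was lower without the highest Scrublet scores.

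On the plain row the ratio of bbip1 in cones reversed (−0.38, from 0 UMIs at the floor). With P23H V2, cep290 (−1.81) and tulp1a (1.82) reversed in rods. ift172 (0.23) and bbs12 (1.57, from 0 UMIs at the floor) did so in cones. In bipolar cells P23H V2 reversed arl13a (0.39), bbs12 (2.18, from 0 UMIs at the floor), ift57 (0.46, from 0 UMIs at the floor) and tulp1b (0.024). In amacrine cells it reversed arl13a (0.90), bbs12 (0.15, from 0 UMIs at the floor) and ift22 (−0.39). Subtracting the ceiling reversed arl13a (1.40) and tulp1a (0.079) in amacrine cells. Apart from where the construction shows it (fewer genes or cells, one row), the cause was not tested. Low counts limit IFT-A, bbs1, bbs2, bbs4, bbs10 and bbs12 in most types.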

Other observations

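In the RefSeq gene order of assembly GRCz12tu, bbip1 lies between shoc2 and pdcd4b, while the counts were made on build GRCz11. Over all cells pdcd4b had 274 CPM in P23H V3 and 51.7 CPM in WT V3 (log2 ratio 2.40, 2.33 to 2.48), and shoc2 had 11.2 and 16.8 CPM (−0.59, −0.79 to −0.39). The next gene with more than 100 UMIs on the side of pdcd4b, smc3, had 115 UMIs in P23H V3 and 41 in WT V3 (1.53, 1.01 to 2.08). Beyond smc3, dusp5 went the other way and was not called, with 274 UMIs in P23H V3 and 379 in WT V3 (−0.42, −0.65 to −0.20). Beyond shoc2, ncf4 was called higher, with 80 UMIs in P23H V3 and 41 in WT V3 (1.01, 0.45 to 1.59). All these ratios are over all cells, and the share of each cell type differed between the libraries. These neighbours were looked at after the values of bbip1 were seen, and no cause was tested.

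Split symbols made up 7 of the 36 genes higher in P23H V3 in every type (19.4%), 7 of the 34 lower in every type (20.6%) and 1388 of the 9218 genes considered in 5 or more cell types.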
